A study of Mus musculus with 768 samples.

Results

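Triple-positive cells were tumor-infiltrating natural killer (NK) cells with transcripts of Nme1, Ldha and Eif3i, all 3 above 0 in the same well. Nme1 is a nucleoside diphosphate kinase that regenerates nucleoside triphosphates, Ldha is the lactate dehydrogenase subunit at the end of glycolysis, and Eif3i is a subunit of the translation initiation complex eIF3. Members were chosen by these 3 measured values among wells with 1000 to 3500 detected genes, where a gene counted if it was above 0 in at least 3 of all 768 wells. There were 340 members among 726 kept wells. They were compared with kept cells holding at most 1 of the 3 transcripts, called comparison cells, 74 on the WT and 72 on the PD-1-/- plate, and the 240 cells with exactly 2 stood between.

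The cells came from MTAP1A tumors, a chemically induced fibrosarcoma line that lacks Tap1 and is low in MHC class I, inoculated into C57BL/6 mice that were either WT or PD-1-/-. For each genotype the tumors of 3 mice were pooled and NK cells were sorted one per well onto 1 plate for SMART-SEQ2, a full-length RNA-seq method without molecular identifiers. The deposited tables hold 768 wells, 1 plate a genotype. Genotype, pool and plate therefore cannot be told apart, cells of 1 pool are not replicates, and no p-value was computed. The ranges in brackets after shares are exact binomial (Clopper-Pearson) 95% intervals, which cover counting error only.

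NK cells that leave rest and begin to grow are known to switch on MYC and mTORC1 programs: they make ribosomes in the nucleolus, raise glycolysis, take up amino acids and fold and turn over more protein. Circulating mature NK cells, in contrast, are known for Klf2, S1pr1 and S1pr5, which keep lymphocytes moving between blood and tissue. The label of the members, biosynthetically active, was therefore read against lists of genes for these programs that held none of the 3 markers.

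Transcripts of Pdcd1, the gene named in the genotype, were above 0 in 9 of 360 kept WT wells (2.50%, 1.15 to 4.69) and in 47 kept PD-1-/- wells (12.8%, 9.59 to 16.7). Mean levels were 14.4 and 13.9 RPKM (reads per kilobase of transcript, scaled to the reads of the cell). The values do not say which exons the reads came from, so they check the label of neither plate, and the plates are named below by their labels. Among members, 7 WT cells (3.95%) and 23 PD-1-/- cells (14.1%) held Pdcd1 transcripts.

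The members carried NK cell transcripts. Ncr1, which encodes the activating receptor NKp46, was above 0 in 93.8% of WT and 92.6% of PD-1-/- members. Klrb1c (NK1.1) was above 0 in 97.7% and 96.9%, and the adaptor Fcer1g in all of them. The 8 NK markers made up a median of 3.13% of the summed RPKM in WT members and 3.01% in PD-1-/- members, against 3.35% and 3.26% in comparison cells. Csf3r, Ms4a1, Themis and Col1a2, a marker each of neutrophils, B cells, T cells and fibrosarcoma, were at 0 in every member. Other markers of the same 4 cell types were above 0 in some members. At least 1 CD3 chain (Cd3d, Cd3e or Cd3g) was found in 17.5% of WT members (12.2 to 23.9) and 27% of PD-1-/- members (20.3 to 34.5), against 16.2% (8.67 to 26.6) and 20.8% (12.2 to 32) of comparison cells. The summed level of the 10 T cell markers reached 0.936% and 1.13% of the summed RPKM in single members and 0.886% and 1.01% in single comparison cells, with a median of 0 in all 4 groups. Myeloid, neutrophil, B cell and fibrosarcoma marker sums also had medians of 0, but single members held some of these transcripts. Their highest sums in WT and PD-1-/- members were 0.123% and 0.290% for myeloid, 0.25% and 0.0373% for neutrophil, 0.000493% and 0.00571% for B cell and 0.144% and 0.162% for fibrosarcoma markers. Without CD3-positive cells, members were 49.5% of kept WT and 42% of kept PD-1-/- cells.

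Of the 3 genes, RefSeq's promoter windows for GRCm38.p6 hold Nme1 and Ldha. They are shown because both carry the canonical E-box CACGTG, the sequence that MYC and related factors bind. Each line gives the 250 bases before 1 annotated start, 5′ to 3′ on the gene's own strand, with CACGTG in capitals. The Nme1 stretch lies on the minus strand at chr11:93968273-93968522 and the Ldha stretch on the plus strand at chr7:46845554-46845803.
Nme1: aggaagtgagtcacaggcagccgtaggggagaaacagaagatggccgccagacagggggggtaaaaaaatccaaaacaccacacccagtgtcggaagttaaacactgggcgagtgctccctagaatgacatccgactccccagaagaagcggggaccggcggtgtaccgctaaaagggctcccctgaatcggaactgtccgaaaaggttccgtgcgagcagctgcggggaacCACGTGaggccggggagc
Ldha: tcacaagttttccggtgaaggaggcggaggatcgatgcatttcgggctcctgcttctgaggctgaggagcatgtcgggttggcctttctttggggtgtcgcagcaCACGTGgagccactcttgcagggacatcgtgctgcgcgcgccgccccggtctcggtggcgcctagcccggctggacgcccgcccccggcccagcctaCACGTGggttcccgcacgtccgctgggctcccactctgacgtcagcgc
The E-box began 18 bases before the start of Nme1, and the nearer of a pair of E-boxes began 48 bases before that of Ldha. A further annotated start of Nme1 had 1 as well, 29 bases upstream, and a further start of Ldha had none. Across windows of 300 bases (250 before to 50 after a start), CACGTG was in 2349 of 32851 windows in the table (7.15%), in 10.9% of windows of the genes compared below, in 15% for genes above 1.5-fold in the members and in 13.3% for genes below it. It was in 5 of 28 windows of the ribosome biogenesis genes (17.9%) and in 1 of 23 of the glycolysis genes (4.35%). ACGTG or GCGTG, the core of the hypoxia response element and partly the same letters as CACGTG, was in 64.4% of windows of the genes compared, in 66.2% for genes above and in 59.1% for genes below, both strands searched. These are matches of letters and not sites of binding.

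Levels of the markers in the members were mostly far from 0. Nme1 ranged from 5.08 to 1835 RPKM in the WT members, with a median of 360.8, and from 2.12 to 1345 in the PD-1-/- members, with a median of 305.5. Ldha ranged from 9.10 to 5677 with a median of 622.2 in WT and from 2.64 to 3484 with a median of 538.8 in PD-1-/- members. Eif3i ranged from 2.30 to 2513 with a median of 510.7 in WT and from 1.85 to 1937 with a median of 456.0 in PD-1-/- members. Only 6 WT and 9 PD-1-/- members had a lowest marker under 10 RPKM. Just outside the rule, cells with exactly 2 markers held Ldha at lower medians than members, 435.9 RPKM in WT and 457.1 in PD-1-/- cells. Where they held Eif3i its medians were higher, 586.9 and 547.8. For Nme1 they were 313.7 in WT, lower than in members, and 350.4 in PD-1-/- cells, higher. These values chose the members and are a description. The missing transcript was Nme1 in 47 of the WT cells with 2 markers, Eif3i in 48 and Ldha in 14. On the PD-1-/- plate it was Nme1 in 52, Eif3i in 64 and Ldha in 15.

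Members made up 49.2% of the 360 kept WT cells (43.9 to 54.5) and 44.5% of the kept PD-1-/- cells (39.4 to 49.8), and these intervals overlap. In the upper rows of each plate, A to H, they were 47.2% of WT and 40.8% of PD-1-/- cells. The lower rows, I to P, held 51.1% and 48.4%. Row A alone held 11 members among 17 WT cells and 6 among 23 PD-1-/- cells.

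Joint detection of the 3 markers was close to what their single detection rates gave once the number of detected genes was held. If the 3 had been independent within bands of 250 detected genes, 171.4 WT and 161.7 PD-1-/- cells would have had all of them. The numbers seen were 1.03 and 1.01 times these. Without bands the ratios were 1.20 and 1.15. The members are therefore named here by their transcripts and not as a cell type.

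Membership went with the number of detected genes. The median was 2538 in members of either plate, against 1775.5 in WT and 1801.5 in PD-1-/- comparison cells. The share of members was 18.4% in WT and 14.4% in PD-1-/- cells with under 2000 detected genes, and 61.5% and 60.2% from 2000 up. Recovered reads differed less, with medians of 257935 in WT and 272631 in PD-1-/- members against 232262.5 and 250364 in comparison cells. After each cell was thinned to 100000 recovered reads, members still had more detected genes, medians of 1863 and 1871 against 1367.5 and 1395, over the genes whose reads could be recovered. Before thinning the medians over the same genes and cells were 1985 and 1988.5 in members and 1456.5 and 1488 in comparison cells. Thinning left out 10 WT and 5 PD-1-/- members and 12 and 6 comparison cells that were shallower.

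**Figure D1:**
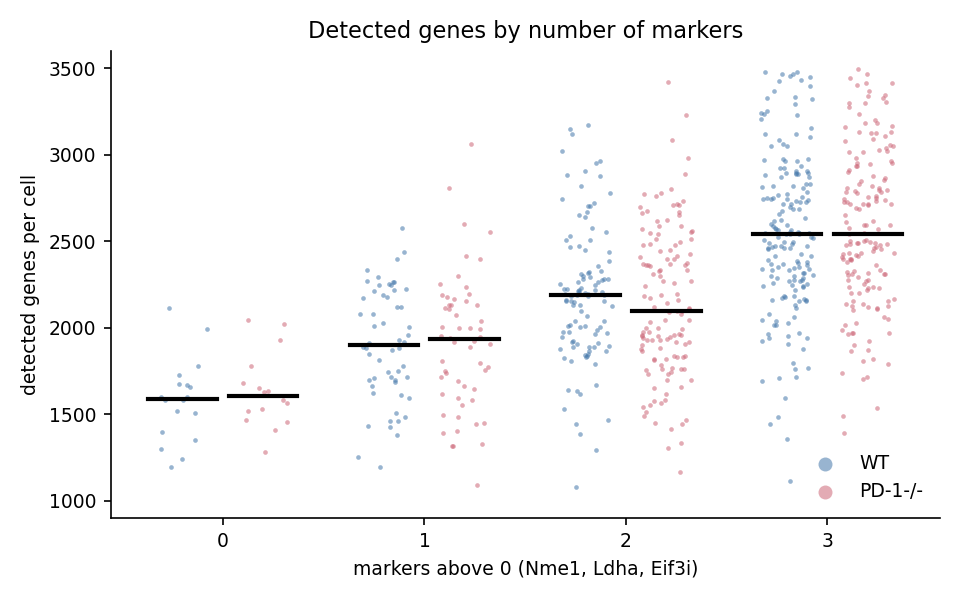
Detected genes per cell (vertical axis) against the number of markers above 0 (horizontal axis) for kept WT and PD-1-/- cells, 1 point a cell, with black bars at the medians. The medians climb from 1588.5 and 1603.5 genes with no marker to 2538 with all 3 on both plates.

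All other genes were then compared at matched numbers of detected genes: within a plate, comparison cells were weighted to the members' spread over bands of 250 genes. This kept 83 WT members (46.9%) and 78 PD-1-/- members (47.9%), since bands from 2500 genes up held too few comparison cells. Mean detected genes were then 2176 against 2146.8 in WT and 2211.8 against 2186.8 in PD-1-/- cells. The weights leaned on few comparison cells, in effect 24.2 of 69 in WT and 11.1 of 54 in PD-1-/- cells, so a single comparison cell could set the value of a rarely detected gene.

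Of 5541 genes compared (mean of at least 10 RPKM and above 0 in at least 10% of kept cells), 566 were at least 1.5-fold above in the members on both plates, 10.2%, and 4.66% were as far below. Ratios are of mean RPKM with 1 added. The filter was set on all kept cells, members among them, so a gene could pass it mainly through the members. A further 641 genes passed 1.5-fold in opposite directions on the 2 plates, more than in either shared direction. With each plate counted by itself, 1369 genes were above in WT and 1958 in PD-1-/- members, and 1048 and 1114 were below. Whether the plates shared more calls than unrelated plates with such counts would was not tested. Without matching, 5.79% were above and 3.95% below on both plates. The balance of the matched counts depended on the weights: of the genes past the limit 68.7% were above, but only 35.1% when the members were instead weighted to the comparison cells' bands. Gene counts therefore serve only as the background of the lists below. The median log2 ratio over all genes was 0.06 in WT and 0.21 in PD-1-/- cells when matched and 0.03 and 0.04 when not.

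**Figure D2:**
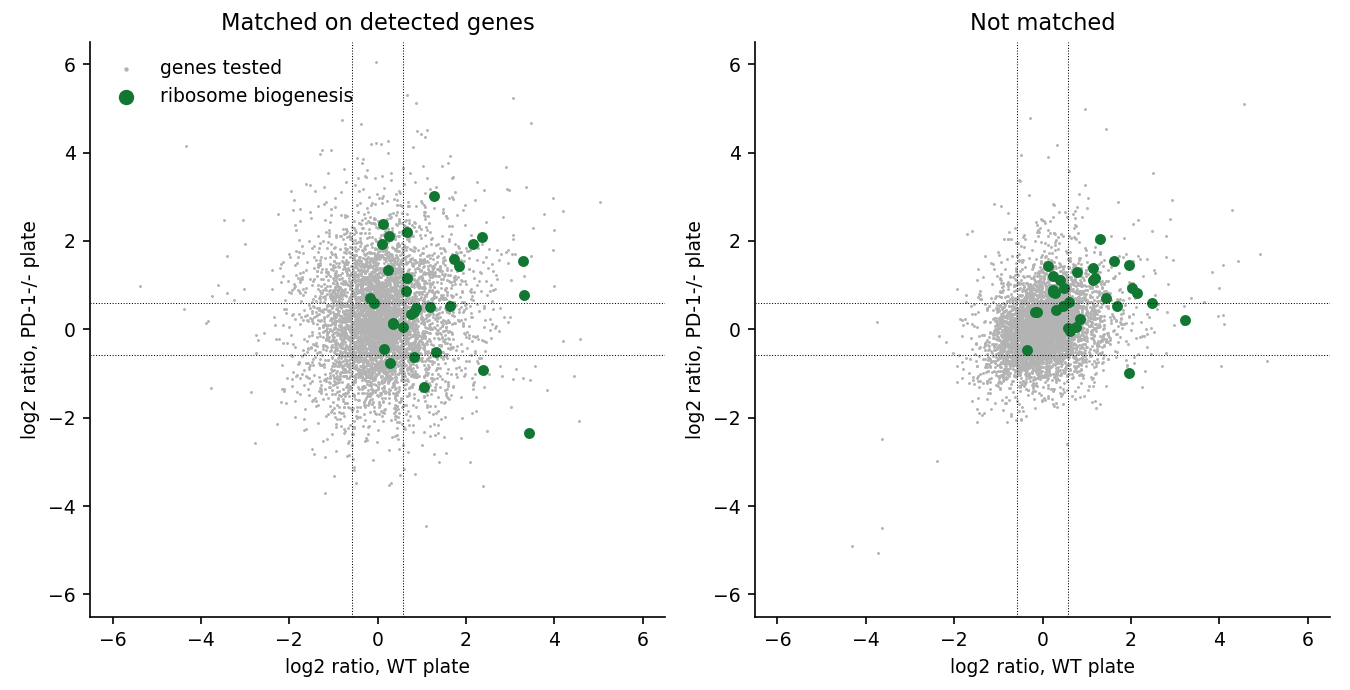
Log2 ratio of mean RPKM (plus 1), triple-positive over comparison cells, on the WT plate (horizontal axis) and the PD-1-/- plate (vertical axis), matched on detected genes at left and not matched at right. Grey points are the 5541 genes, green points the 31 ribosome biogenesis genes and dotted lines 1.5-fold. 22 of the green points lie above 0 on both plates when matched and none lies below 0 on both.

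Ribosome biogenesis genes, which process ribosomal RNA and assemble the subunits in the nucleolus, lay above the background on both plates. Of 31 compared, 10 were above 1.5-fold on both plates and none below, 32.3% against 10.2% of all genes. The median log2 ratio was 0.81 in WT and 0.59 in PD-1-/- cells. Without matching 12 of 31 were above, against 5.79% of all genes, with medians of 0.75 and 0.83. Against cells with exactly 2 markers, the list had 1 of 31 above 1.5-fold on both plates and all genes had 1.73%. Against cells with none of the markers 7 were above, beside 10.3% of all genes. There the list median, averaged over plates, was only 0.03 above that of all genes. Without CD3-positive cells 9 were above against comparison cells, beside 10.9% of all genes. Without cells with at least 2 cycling markers 10 were above, beside 11.1% of all genes.
Shares of cells above 0, here and below, are not matched on detected genes, which were more numerous in members.
Nop16, a factor of the large subunit, was above 0 in 39 WT members (22%, 16.2 to 28.9) against 3 of 74 comparison cells (4.05%, 0.844 to 11.4). In PD-1-/- cells these were 38 members (23.3%, 17.1 to 30.6) and 2 of 72 comparison cells (2.78%, 0.338 to 9.68). Its members' levels ran from 0 to 425 RPKM in WT and to 522 in PD-1-/- cells, with medians of 0, and the ranges of the groups overlapped. Matched log2 ratios were 2.35 and 2.09.
Nip7, which acts in pre-rRNA cleavage, had transcripts in 27.1% of WT and 32.5% of PD-1-/- members against 10.8% and 8.33% of comparison cells, with matched log2 ratios of 2.17 and 1.94. Nhp2, a protein of the H/ACA particles that convert uridine to pseudouridine, was found in 41.2% and 46% of members against 20.3% and 18.1%, with ratios of 1.72 and 1.59. Tsr1, needed for the small subunit, had ratios of 3.30 and 1.55. The other 6 above 1.5-fold on both plates were Nop2, Nop14, Nolc1, Gnl3, Mybbp1a and Noc2l.

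The most abundant genes of the list differed less. Npm1, the nucleolar chaperone nucleophosmin, had a median of 247.4 RPKM in WT members and 217.3 in PD-1-/- members, against 232.3 and 149.5 in comparison cells, and its matched log2 ratios were -0.08 and 0.59. Nop56, of the box C/D methylation particles, had ratios of 0.76 and 0.34. Myc, the transcription factor known to drive this program, was above 0 in 46.3% of WT and 55.2% of PD-1-/- members against 36.5% and 30.6% of comparison cells. Its mean was 74.1 RPKM in WT members against 80.2 in comparison cells and 87.4 against 66.8 on the PD-1-/- plate, and its matched log2 ratios were 0.35 and 0.15.

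As a share of each cell's summed RPKM the 40 listed genes were higher in median with 2 and with 3 markers than with at most 1. Among cells with 1750 to 2499 detected genes, WT medians were 0.193% with at most 1 marker, 0.245% with 2 and 0.258% with 3. PD-1-/- medians were 0.189%, 0.251% and 0.308%. Below 2 markers the order was mixed. Over all kept cells the medians with none and with 1 were 0.228% and 0.184% in WT and 0.148% and 0.193% in PD-1-/- cells. In that range of detected genes they were 0.154% and 0.193% in WT and 0.198% and 0.189% in PD-1-/- cells. Only 3 WT and 4 PD-1-/- cells of the range held no marker. The quartiles overlapped throughout, 0.118 to 0.294% in WT comparison cells against 0.175 to 0.406% in WT members of that range.

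**Figure D3:**
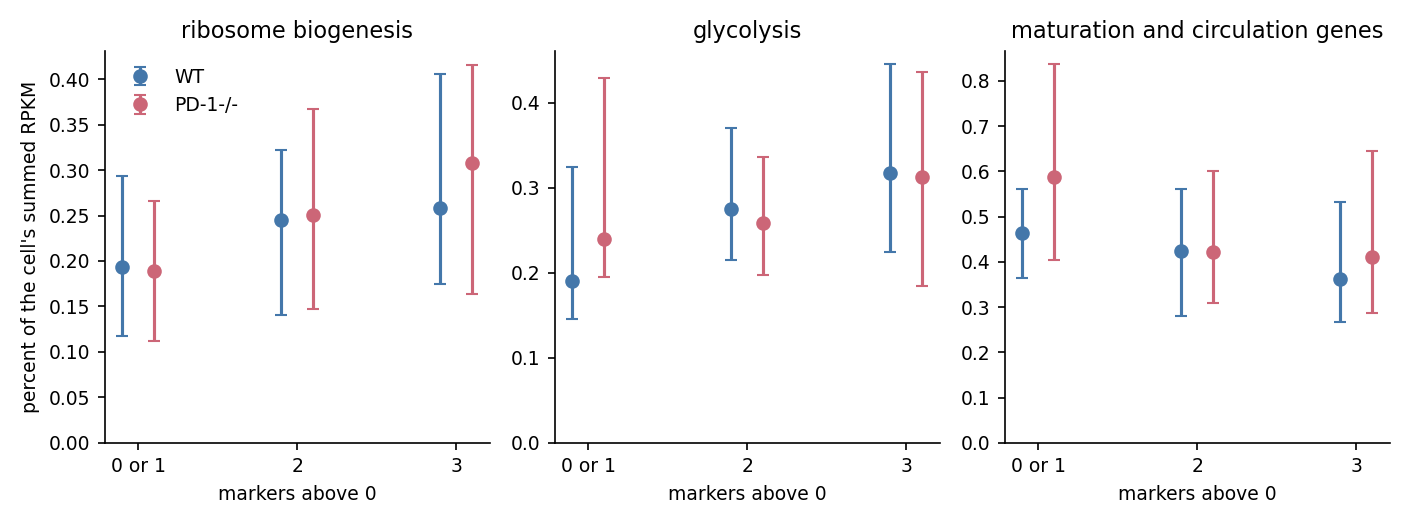
Summed level of 3 gene lists as a percent of the cell's summed RPKM (vertical axes) by number of markers above 0, in cells with 1750 to 2499 detected genes. Points are medians and bars quartiles over cells. Ribosome biogenesis medians are 0.193% in WT cells with at most 1 marker and 0.258% with 3, and 0.189% and 0.308% in PD-1-/- cells, while those of maturation genes are 0.464% and 0.361% in WT and 0.587% and 0.410% in PD-1-/- cells.

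Glycolysis genes other than Ldha had median log2 ratios of 0.83 in WT and 0.54 in PD-1-/- cells over 17 genes. None was below 1.5-fold on both plates and 3 were above, 17.6% against 10.2% of all genes. These were Eno1, the enolase, with matched ratios of 0.87 and 0.85, Slc16a3, the lactate exporter, with 3.31 and 1.20, and Pdk1, which restrains entry of pyruvate into mitochondria, with 1.75 and 1.02. The ratio of Pdk1 on the PD-1-/- plate was -0.35 without matching.
Pkm, the pyruvate kinase, was in 92.1% of WT and 94.5% of PD-1-/- members, with means of 220.9 and 235.4 RPKM against 111.8 and 135.9 in comparison cells. Its highest single values were 1070 and 1080 in members and 543 and 582 in comparison cells, so the ranges overlapped while the means were set apart on both plates. Matched log2 ratios were 0.63 and 0.58, the latter just short of 1.5-fold. Aldoa, an abundant aldolase, had ratios of 0.10 and 0.63. Ldhb and Ldhc, the other lactate dehydrogenase subunits, were each above 0 in at most 1.23% of members of either plate.

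Genes of amino acid uptake, one-carbon and polyamine metabolism had 5 of 20 above 1.5-fold on both plates and none below. This was 25% against 10.2% of all genes, and the medians were 0.46 and 0.74. Among cells with 1750 to 2499 detected genes, the 27 listed genes made up little more of the summed RPKM in WT members. The medians were 0.140% in WT members, 0.130% in comparison cells and 0.144% in cells with 2 markers. On the PD-1-/- plate they were 0.166%, 0.123% and 0.144%. Mthfd1, the folate enzyme that makes one-carbon units for purines, was above 0 in 33 WT members (18.6%, 13.2 to 25.2) and 34 PD-1-/- members (20.9%, 14.9 to 27.9). It was at 0 in all 74 WT and all 72 PD-1-/- comparison cells, with upper exact limits of 4.86% and 4.99%, so no fold is given. Mthfd1 still counts among the 5. Cells with exactly 2 markers held it in 9.17% and 11.5%. Srm, the spermidine synthase, was found in 27.7% and 25.2% of members against 5.41% and 9.72%, with matched ratios of 1.37 and 1.94. Shmt2, the mitochondrial serine hydroxymethyltransferase, had ratios of 0.85 and 2.41, Slc7a6, an amino acid transporter subunit, 1.28 and 1.27, and Got1, the aspartate aminotransferase, 1.18 and 1.19, though that of Got1 was -0.58 without matching on the PD-1-/- plate.
Nucleotide synthesis had 2 of 22 above (9.09%, near the background) and medians of 0.24 and 0.61. The 2 were Dtymk, the thymidylate kinase, with ratios of 1.48 and 2.62, and Gart, of purine synthesis, with 1.05 and 0.60. Nme2, the neighbour and close paralog of Nme1, was above 0 in 84.7% of WT and 82.2% of PD-1-/- members against 41.9% and 48.6% of comparison cells. Its matched ratios were -0.10 and 0.57 and reads may be shared between the 2 genes, so its level is uncertain.

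Protein folding genes had 8 of 37 above 1.5-fold on both plates and none below (21.6%, against 10.2% of all genes). The medians were 0.29 and 0.40. Cct3, of the chaperonin that folds actin and tubulin, had medians of 47.6 RPKM in WT and 85.1 in PD-1-/- members against 0 in comparison cells of both plates, and matched ratios of 1.74 and 1.10. Hspa9, the mitochondrial Hsp70, had ratios of 1.61 and 2.97, and Pdia6, a disulfide isomerase of the endoplasmic reticulum, 1.53 and 1.76. The others were Hspd1, Fkbp4, Stip1, Dnaja1 and Calr. Without matching Dnaja1, an Hsp40, had -0.65 on the PD-1-/- plate in place of 0.72, and Fkbp4, an Hsp90 cochaperone, had 0.37 and 0.06 in place of 1.52 and 1.26. Proteasome subunits had 5 of 34 above and none below (14.7%, against 10.2% of all genes), with medians of 0.15 and 0.42. Psma5 of the core particle was found in 62.1% and 62% of members against 28.4% and 22.2% of comparison cells, with matched ratios of 0.88 and 0.98. Psma2, Psma4, Psmb5 and Psmd7 were the other 4.

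Translation factors, the list nearest to Eif3i, stood close to the background. Only Eif2b3 of 38 was above 1.5-fold on both plates (2.63%, against 10.2% of all genes) and the medians were 0.09 and 0.29. Of the eIF3 subunits, Eif3a had matched ratios of 0.31 and 0.59, Eif3c of 0.65 and -0.26, Eif3e of -0.14 and -0.03, Eif3f of 0.17 and 0.39 and Eif3g of -0.04 and -0.83. No eIF3 subunit other than Eif3i passed 1.5-fold on both plates in either direction. Eef1a1, the most abundant elongation factor, had medians of 2520 and 2220 RPKM in members against 1590 and 1520 in comparison cells, but matched ratios of only 0.19 and 0.36. Cytosolic ribosomal proteins had medians of 0.11 and 0.19 when matched, with 1 of 64 above, Rpl34, and 1 below, Rpl27a (1.56% each), and of 0.36 and 0.40 when not. On the PD-1-/- plate Rpl34 had 1.5 matched and -0.22 unmatched, and Rpl27a -1.40 and 0.14. Nuclear oxidative phosphorylation genes had none above and 1 of 64 below, Uqcr11 (1.56%, against 4.66% of all genes), with medians of 0.13 and 0.06. Uqcr11, a subunit of complex III, turned with the matching, with ratios of -0.70 and -0.61 matched and 0.62 and 0.41 unmatched. Genes of mitochondrial import, translation and the TCA cycle had 5 of 45 above (11.1%, near the 10.2% of all genes). These were Timm9, C1qbp, Idh3a, Ogdh and Dlst, and the medians of the list were 0.19 and 0.07.

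**Figure D4:**
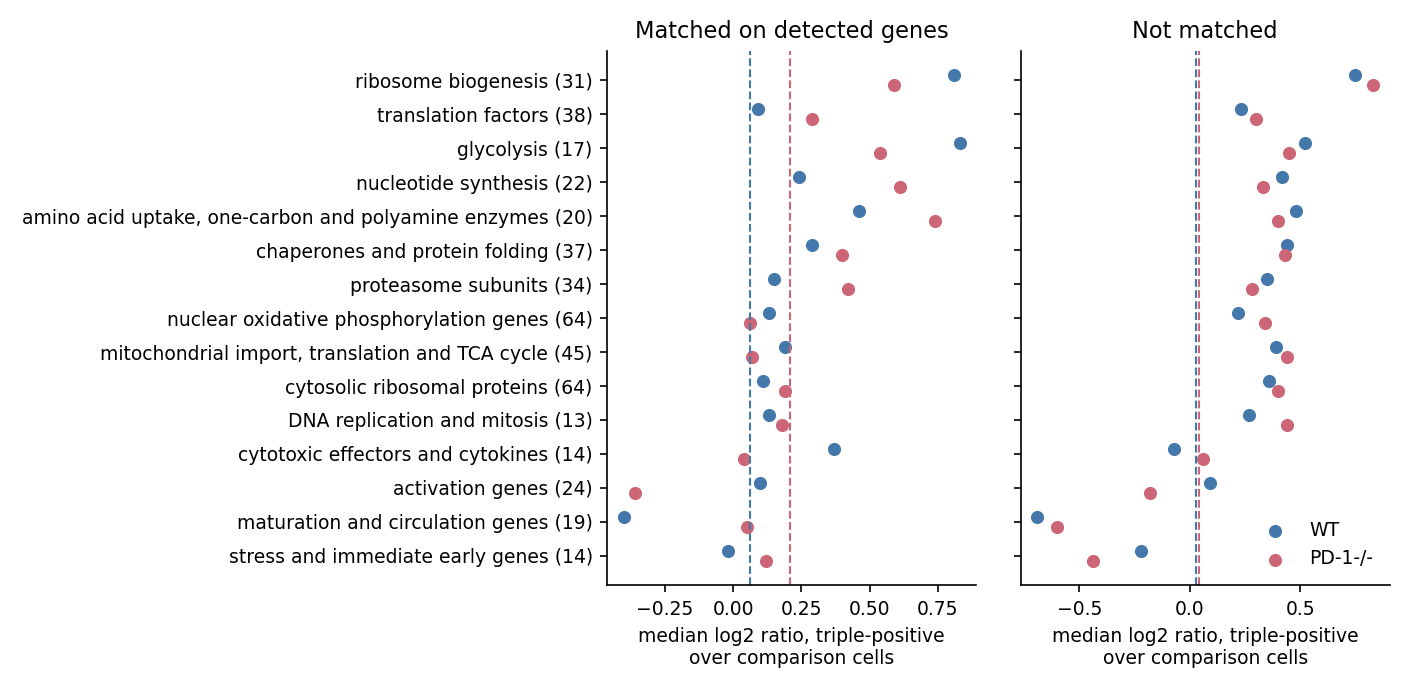
Median log2 ratio of mean RPKM (plus 1), triple-positive over comparison cells (horizontal axes), for each gene list, with the number of genes compared in brackets, matched on detected genes at left and not matched at right. Blue is the WT and red the PD-1-/- plate, and dashed lines are the medians of all 5541 genes. When matched, 7 of the 10 biosynthetic lists, those at the top, from ribosome biogenesis to proteasome subunits, lie right of the dashed line of their own plate on both plates, and all 10 do without matching.

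Over the 10 biosynthetic lists, 40 genes (10.8%) were above 1.5-fold on both plates and 2 (0.538%) were below, where the background is 10.2% above and 4.66% below, so the pooled share above was near the background. The 3 lists without a median above that of all genes on both plates were oxidative phosphorylation, mitochondrial genes and ribosomal proteins. The number of lists with such a median was 7 as reported, 5 after thinning and against cells with no marker, and 10 without matching.

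The 15 genes with the largest ratio shared by both plates in the members were Psmg2, Ltv1, Mthfd1, Snhg4, Dph6, Cables1, 5430416N02Rik, Jmjd7, Apex1, Fra10ac1, Coq2, Tnpo3, Bcat2, Fam203a and Snap47. They were genes of low mean level, with means of 12.7 to 44.4 RPKM over all kept cells. A gene could pass the filter mainly through the members, and the ranking is a description. Mthfd1, at 0 in all comparison cells, was ranked by a ratio that rests on the 1 added to the means. Of the 15 only Mthfd1 was on a list. Psmg2 assembles the proteasome, Ltv1 exports and matures the small ribosomal subunit, Dph6 modifies elongation factor 2, Coq2 makes ubiquinone, Bcat2 is the mitochondrial branched-chain aminotransferase and Tnpo3 imports proteins into the nucleus. Psmg2 had transcripts in 21.5% of WT and 25.8% of PD-1-/- members against 8.11% and 5.56% of comparison cells. Ltv1 was found in 22% and 19.6% against 4.05% and 6.94%. Tnpo3, the most detected of them, was found in 40.1% and 42.9% against 16.2% and 20.8%. All 15 were also above 0 on both plates without matching but some by much less, such as Ltv1 with 1.24 and 1.06 in place of 3.37 and 3.21. The choice of comparison cells turned some: as a mean over plates, Ltv1 had -2.06, Bcat2 -4.26 and Fra10ac1 -3.00 against cells with none of the markers, and Jmjd7 had -0.49, Fra10ac1 -0.32 and Bcat2 -0.23 against cells with exactly 2.

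The 10 lowest shared ratios were those of Ikbke, Srek1, Smpd1, Cox19, Rtp4, Itgb3, Zc3hc1, Gm2382, Zcchc11 and Hbs1l, from -2.78 to -1.61. They were less stable: Srek1 and Smpd1 had ratios between -0.32 and -0.13 without matching on both plates, and Ikbke had 0.24 on the PD-1-/- plate. Rtp4, an interferon-stimulated gene, was above 0 in 13.6% of WT and 11% of PD-1-/- members against 12.2% and 8.33% of comparison cells, so that its lower mean came with no lower share of cells. Zcchc11, which adds uridines to RNA, was found in 47.5% and 41.7% against 51.4% and 43.1%.

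The median of NK maturation and circulation genes lay below that of all genes on both plates. The median of 19 compared was -0.40 in WT and 0.05 in PD-1-/- cells when matched, where all genes had 0.06 and 0.21, and -0.69 and -0.60 without matching. Klf2, the transcription factor that drives S1pr1, was the single one below 1.5-fold on both plates when matched, 5.26% of the list against 4.66% of all genes. It was above 0 in 36.2% of WT members (29.1 to 43.7) against 56.8% of comparison cells (44.7 to 68.2). On the PD-1-/- plate the shares were 23.9% (17.6 to 31.2) and 44.4% (32.7 to 56.6). Members' levels ran from 0 to 391 and 495 RPKM and those of comparison cells from 0 to 775 and 1070, so the ranges overlapped, and the matched log2 ratios were -0.87 and -0.79. Without matching 7 of the 19 were below on both plates and 1, Ccr2, above, where all genes had 3.95% below and 5.79% above. S1pr5, the sphingosine phosphate receptor of mature NK cells, was found in 18.1% and 18.4% of members against 31.1% and 31.9% of comparison cells, but its matched ratios were -0.62 and 0.91. Itgam (CD11b) was found in 13% and 14.7% against 18.9% and 25%, with matched ratios of 0.46 and 0.16. Ly6c2 was found in 19.8% and 32.5% against 36.5% and 47.2%, with matched ratios of -0.14 and -0.75. Cd27, a marker of less mature NK cells, had matched ratios of 0.19 and 0.54.

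Effector genes were mixed. Gzmb, granzyme B, had medians of 1370 and 2080 RPKM in members against 788 and 1890 in comparison cells and matched ratios of 1.32 in WT and -0.63 in PD-1-/- cells. Gzmc was found in 42.9% of WT members (35.5 to 50.6) against 20.3% of comparison cells (11.8 to 31.2), and in 31.9% (24.8 to 39.6) against 12.5% (5.88 to 22.4) on the PD-1-/- plate. Its log2 ratios were 2.88 and 2.50 without matching but -0.43 and -0.51 with it. Single members reached 32200 RPKM in WT and 21700 in PD-1-/- cells, against 2820 and 4920 in comparison cells. Prf1, perforin, had ratios of 0.86 and 0.21 and Gzma of 0.40 and 0.09. Ccl5 had medians of 1670 and 1690 RPKM in members against 10100 and 9280 in comparison cells. Its log2 ratios were -1.57 and -1.09 without matching and -0.90 and -0.34 with it. Ccl3 and Ifng were above 1.5-fold on both plates when matched and Tnfsf10 (TRAIL) was below, 14.3% and 7.14% of the 14 compared against 10.2% and 4.66% of all genes. Ifng, interferon gamma, had ratios of 0.92 and 1.15 matched but -0.57 and 0.19 unmatched.

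Activation genes had 1 of 24 below, Lag3, and none above when matched, with medians of 0.10 in WT and -0.36 in PD-1-/- cells. The share below was 4.17%, near the 4.66% of all genes, of which 10.2% were above. Lag3 itself turned with the matching: its ratios were 1.55 and 1.41 without it and -1.01 and -1.66 with it. It was found in 18.1% and 31.9% of members against 2.70% and 11.1% of comparison cells. Stress and immediate early genes had 1 above, Zfp36, and 1 below, Btg2, of 14 (7.14% each). Zfp36, which speeds decay of cytokine mRNAs, had ratios of 0.64 and 0.96 matched but -0.51 and -0.37 unmatched. Btg2, an antiproliferative gene, had ratios of -0.92 and -1.72 when matched and -0.82 and -1.08 when not. At least 2 cycling markers were found in 5.08% of WT members (2.35 to 9.43) and 7.36% of PD-1-/- members (3.86 to 12.5) against 1.35% (0.0342 to 7.30) and 2.78% (0.338 to 9.68) of comparison cells. DNA replication and mitosis genes had 2 of 13 above (15.4%), Mcm5 and Mcm6 of the replicative helicase, and 1 below (7.69%), Tipin. On the PD-1-/- plate Tipin had -1.31 matched and 0.78 unmatched. Among the cell type markers compared, none of 8 NK genes and 1 of 2 T cell genes, Cd3g, was above 1.5-fold on both plates.

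**Figure D5:**
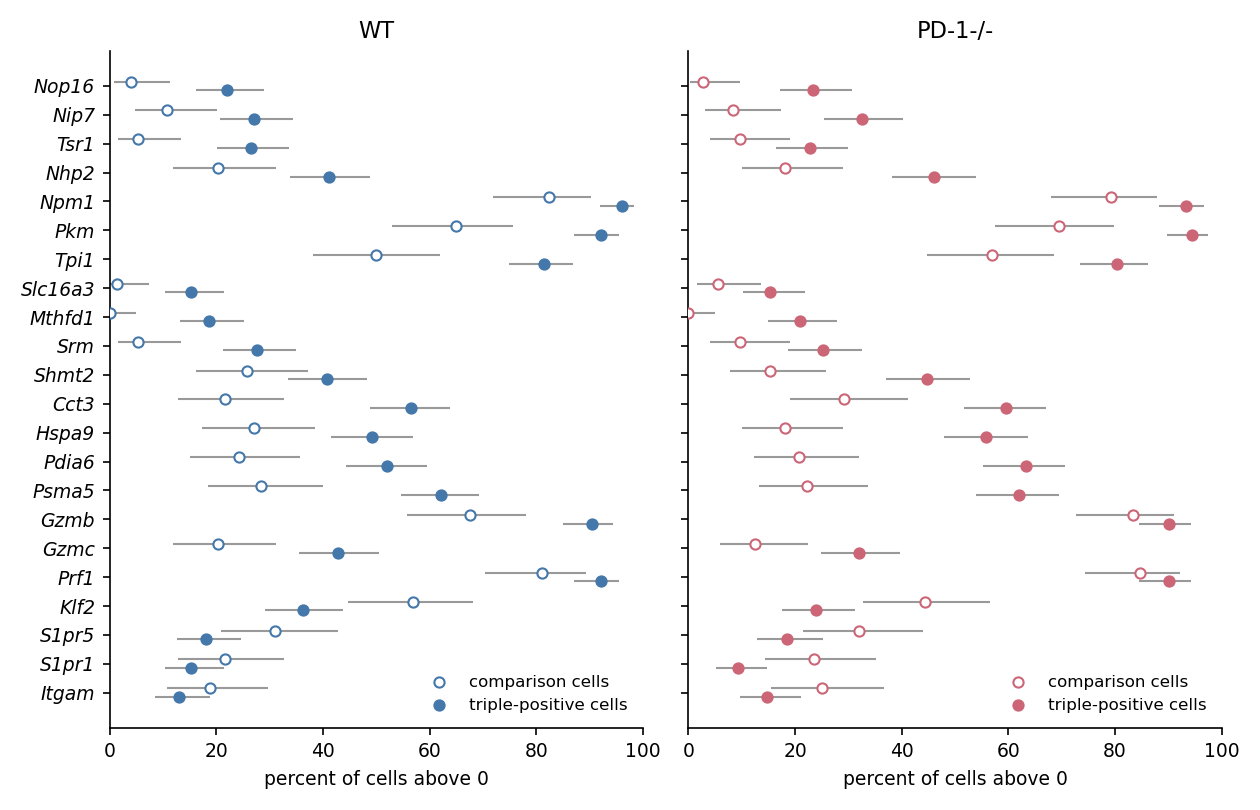
Percent of cells above 0 (horizontal axes) for 22 genes in triple-positive cells (filled) and comparison cells (open), not matched on detected genes, on the WT plate at left and the PD-1-/- plate at right. Lines are exact binomial 95% intervals. Biosynthetic genes lie to the right in triple-positive cells, for instance Cct3 at 56.5 and 59.5% against 21.6 and 29.2%, and Klf2 to the left, at 36.2 and 23.9% against 56.8 and 44.4%.

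Members of the 2 plates were close to each other for the biosynthetic genes. Over 5541 genes, 5.83% were at least 1.5-fold above in the members of the plate labelled PD-1-/- and 5.50% below, with a median log2 ratio of 0. Ribosome biogenesis had 1 above and 2 below, Mybbp1a and Nolc1, with a median of -0.06, glycolysis 1 and 1 with -0.06, and protein folding none with 0.04. Ribosomal proteins had none either, with a median of -0.20. Mybbp1a, a nucleolar regulator of transcription, had means of 53.9 RPKM in WT and 32.3 in PD-1-/- members, and Nolc1 of 36.5 and 21.6. Mrps2, of the mitochondrial ribosome, had the means 49.6 and 17.5, a log2 ratio of PD-1-/- over WT of -1.45, with -1.31 in the upper and -1.63 in the lower plate rows.
Outside the biosynthetic lists, Ly6c2 had means of 419 and 810 RPKM, a log2 ratio of 0.95 in members and 0.84 in comparison cells. Klrg1, a receptor of mature NK cells, had means of 52.3 and 131.9, with ratios of 1.32 in members and 1.95 in comparison cells. These differences therefore stood in cells with and without the 3 markers. With 1 pool and plate a genotype they have no replicate.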

How the data were processed

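Single NK cells of MTAP1A tumors, 1 pool of 3 mice and 1 plate for each genotype, were measured by SMART-SEQ2. The deposited tables hold RPKM per gene and well, made by the authors. The submitters' processing notes name TopHat, Cufflinks, mm9 and mm10 without versions or roles, and which build served these plates is not given in the sources used here. RPKM scales each well to its reads, so the ratios are relative, and low genes are zero in most wells. It does not fix the sum per well. Summed RPKM of kept wells ran from 475899.2 to 750762.9 in WT and from 452382.2 to 779766.1 in PD-1-/- wells.

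The deposited RPKM values, not counts, were used for all ratios (Python 3.11.15, numpy 2.4.6, pandas 2.3.3, scipy 1.17.1, matplotlib 3.10.9). Wells with 1000 to 3500 detected genes were kept. For 9327 genes whole reads were recovered from the RPKM steps (99.7% of 665196 values whole within a relative tolerance of 0.0003). They served only for depth and thinning, with 995 to 447683 reads per kept well. PCR reads carried no molecular identifiers. Doublets were not called. The ratio, its pseudocount of 1, the filter and the matching are given with the results. The matched comparison was tested on values shuffled among these cells with planted changes, and read recovery on simulated reads. The planted changes were larger than 1.5-fold and lay in genes of high mean level. Genes of low level and changes near 1.5-fold were therefore not covered.

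The members and gene lists were chosen with earlier results of these data known. Named genes were the 3 markers, the 15 highest and 10 lowest shared ratios, the 4 most abundant genes and 4 largest ratios of each list, effector, activation, maturation and cell type marker genes, and the Nme, Ldh and Eif3 families. Other list genes past 1.5-fold, and those differing between plates, were named after their values were seen. Alternatives covered the matching, the filters, the comparison cells, the plate rows and the markers' threshold.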

Additional observations from a re-analysis of the deposited data

Results flagged for a closer look

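The matched medians of 3 lists had opposite signs on the 2 plates, and the difference was not tested. Activation genes had 0.10 in WT and -0.36 in PD-1-/- cells, maturation and circulation genes -0.40 and 0.05, and stress and immediate early genes -0.02 and 0.12. All genes had 0.06 and 0.21. Against these the maturation and the stress medians lay below on both plates, and only activation genes changed side.

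Wells above the upper limit of 3500 detected genes entered no comparison, and most held all 3 transcripts: among WT wells 13 of 16 (81.2%, 54.4 to 96) and among PD-1-/- wells 12 of 14 (85.7%, 57.2 to 98.2). Below 1000 detected genes, none of 8 WT and none of 4 PD-1-/- wells did.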

How the results depend on the processing

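No paired analysis was possible because each genotype had 1 pooled sample on 1 plate. Of 27 settings, 23 were planned and 4 were chosen after seeing the data: members weighted to the comparison cells' bands, no highest band, no wells under 100000 reads and no row A. Member shares were 47.2% in the upper and 51.1% in the lower plate rows in WT, and 40.8% and 48.4% in PD-1-/- cells. Row A alone, with few cells, had 64.7% in WT and 26.1% in PD-1-/- cells. The cause of the moves below was not tested.

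Over 22 settings, the median of ribosome biogenesis less that of all genes, averaged over plates, stayed above 0 (0.03 to 0.95, 0.56 as reported). So did glycolysis (0.04 to 0.79), amino acid and one-carbon genes (0.21 to 1.05), protein folding (0.14 to 0.42) and proteasome (0.05 to 0.34), while maturation genes stayed below 0 (-1.34 to -0.19). For ribosome biogenesis it was 0.62 after thinning, 0.31 against cells with exactly 2 markers and 0.03 against cells with none.

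Co-detection without bands was 1.20 in WT and 1.15 in PD-1-/- cells. The 10.2% of genes above became 5.79% without matching, 4.71% with 1 to 1 nearest cells, 5.43% with members weighted, 6.33% without the highest band, 1.73% against cells with exactly 2 markers, 5.59% by share of cells, 4.62% at 2-fold, 6.17% with a pseudocount of 10, 10% (1417 genes) with no filter and 5.35% at a mean of 50 RPKM. The 4.66% below became 7.86% in the upper and 8.26% in the lower plate rows, 10.1% with members weighted, 17.3% against cells with no marker, 1.41% against exactly 2, 3.01% by share of cells, 1.46% at 2-fold, 2.87% with a pseudocount of 10, 4.84% (686 genes) with no filter and 2.62% at a mean of 50 RPKM. The 10 ribosome biogenesis genes became 1 against exactly 2 markers, 5 by share of cells, 6 at 2-fold, 6 with a pseudocount of 10 and 1 at a mean of 50 RPKM. Between the plates, 5.83% above and 5.50% below became 12.9% and 11.8% in the upper rows, 11.1% and 10.7% in the lower rows, 2.26% and 2.11% with a pseudocount of 10, 11.9% and 13.3% with no filter, and 1.54% and 2.01% at a mean of 50 RPKM.

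Among lists with 1 sign on both plates as reported, the direction turned for 7 list values. Among the genes with the highest and lowest shared ratios, the direction turned for 10 of 522 gene values. Each value is a mean over plates. The remaining named genes were not counted, and some of them turned without matching. Lag3 had -1.01 in WT and -1.66 in PD-1-/- cells matched, but 1.55 and 1.41 unmatched. Uqcr11 and Zfp36 likewise changed sign on both plates. Lists of mixed sign also crossed 0: activation (-0.47 to 0.18, -0.27 as reported), oxidative phosphorylation (-0.07 to 0.33, -0.04), mitochondrial (-0.09 to 0.38, -0.01), DNA replication (-0.17 to 0.76, 0.02), effector (-0.04 to 0.34, 0.07) and ribosomal protein genes (-0.02 to 0.40, 0.02). Nucleotide synthesis was -0.06 in the lower rows and -0.05 against cells with no marker, and translation factors -0.05 after thinning. Stress genes were 0.14 in the lower rows, 0.02 without CD3-positive cells, 0.10 with no filter and 0.03 with members weighted. Against cells with no marker, Bcat2 was -4.26, Fra10ac1 -3.00 and Ltv1 -2.06. Against exactly 2 markers, Bcat2 was -0.23, Fra10ac1 -0.32, Jmjd7 -0.49 and Cox19 0.20. Gm2382 was 0.73 in bands of 100, and Srek1 1.09 in the upper rows and 0.32 without the highest band.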
